A study of Mus musculus with 30 samples.

Results

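Selenoproteins are proteins that carry selenocysteine, an amino acid with selenium in place of the sulfur of cysteine. The mRNA levels of 10 selenoprotein genes (Gpx1, Gpx3, Gpx4, Selenow, Selenoh, Selenop, Selenom, Selenok, Txnrd2 and Msrb1) were read from the raw gene counts of C2C12 myotubes with and without serum. These genes and the gene lists set beside them were chosen by name with earlier results of these data known. Shares called in the lists, set beside shares of all genes, are therefore descriptions. All 10 were found among the 55487 genes counted, and all 10 were among the 15907 genes with enough counts to test. Of the 24 selenoprotein genes of the mouse that were listed, the other 14 are described as comparison genes.

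C2C12 is an established mouse myoblast line that fuses into multinucleated myotubes when growth factors are reduced. Wild-type cells were differentiated for 4 days and then kept for 4 more days under 1 of 5 conditions, with 6 libraries each and 30 in all. Control myotubes stayed in 2% horse serum (2% HS), and the other 4 groups were serum deprived: without an added agent (SD), with 100 nM metformin (MET), with 500 nM leucine (LEU), or with both (MET+LEU). All groups had the same 8 days in culture. Being 1 line in culture, the myotubes have no innervation or blood supply, and the medium's selenium was not among the measurements used here. The labels number the replicates without saying whether they were separate cultures, so p-values measure the spread between libraries. In these bulk libraries fewer cells of a type and less RNA per cell cannot be told apart.

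Selenocysteine is encoded by UGA, which is otherwise a stop codon, and is inserted only when the mRNA carries a selenocysteine insertion element in its 3′ part and the cell has selenium. When selenium is short, some selenoprotein mRNAs are known to be lost through nonsense-mediated decay, a pathway that degrades mRNAs read as having an early stop codon, while others, such as Gpx4, are known to be kept. Serum supplies cultured cells with selenium, much of it in selenoprotein P (SELENOP) and extracellular glutathione peroxidase (GPX3). The comparison of SD with 2% HS therefore addressed the mRNA levels of these genes after serum, a selenium source, was withdrawn together with everything else in it.

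The coding sequence around the selenocysteine codon is shown for 7 genes, because the codon is what members of the family share and its place in the mRNA differs among them. Each line gives up to 12 bases on either side of the first such codon, 5′ to 3′, with the codon TGA in capitals, as read from GENCODE M21 transcripts (GRCm38). The first 4 genes were lower in SD vs. 2% HS, and the last 3 did not pass the test.
Gpx3: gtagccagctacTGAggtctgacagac
Selenop: cttcaagccagcTGAtacttgtgtctt
Selenow: tattgtggagctTGAggctataagccc
Gpx1: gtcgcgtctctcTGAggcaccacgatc
Gpx4: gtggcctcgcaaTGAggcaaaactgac
Txnrd2: gtgactggttgcTGAggctaa
Selenok: atggctggtggaTGAggaaggtaa

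The codon was followed by G in 6 of the 10 members, among them Gpx3, Selenow and Gpx1, which fell, and Gpx4, Txnrd2 and Selenok, which did not pass the test. In Selenow, Selenoh and Selenom a cysteine codon stood 3 codons earlier, the arrangement of a redox-active site. In Txnrd2 and Selenok the codon lay next to or near the true stop codon, where both printed lines end. Selenop was the only member with more than 1 selenocysteine codon, with 10, from residue 59 to residue 377 of 380. The other 9 members had 1 each, in proteins of 88 residues (Selenow) to 527 residues (Txnrd2).

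Libraries held between 12784960 and 19604103 counts. MET+LEU replicate 6 stood apart, with 5.85% of its counts on cytosolic ribosomal RNA genes and 7.64% on mitochondrial ribosomal RNA genes, against at most 1.96% and 0.760% in the other 29 libraries. The groups differed as well. Mitochondrial ribosomal RNA genes held 0.649% to 7.64% of counts in MET+LEU, against 0.281% to 0.367% in SD, without overlap. In MET the share was 0.244% to 0.705% and in LEU 0.501% to 0.710%. The 12 myotube markers summed to 30842 to 44563 CPM in all libraries, and adipocyte markers (Adipoq, Plin1, Cidec and Lep) summed to at most 0.229 CPM in any library. CPM are counts scaled to the size of the library, here by TMM, which sets libraries against each other by the genes that differ least. The TMM factors were 0.803 to 0.985 in MET+LEU and 1.002 to 1.027 in SD. Osteoblast markers summed to at most 0.539 CPM and macrophage markers to at most 4.43 CPM. The 4 fibroblast markers Dcn, Dpt, Lum and Pdgfra were all higher in SD vs. 2% HS, with a summed level of 88.0 to 101 CPM in SD against 28.1 to 38.2 CPM in 2% HS. Of the 12 myotube markers 5 were lower and 1 was higher in SD vs. 2% HS, with sums of 34279 to 36740 CPM in SD and 41715 to 44563 CPM in 2% HS. Of the 7 markers of dividing cells 3 were higher. Among all genes tested 13.9% were higher and 13.9% were lower in this comparison. The part of these shifts in the selenoprotein values was not tested.

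Compared per kilobase of exon, Gpx3 was the most abundant member in 2% HS, at 249 CPM per kb. Gpx4 followed at 95.4 CPM per kb and Selenow at 53.7 CPM per kb. Selenop (23.4 CPM per kb) and Gpx1 (22.5 CPM per kb) lay close together, with Selenok just under them. Txnrd2 at 3.06 CPM per kb and Selenoh at 2.44 CPM per kb were the least abundant. In SD the mean of Gpx3 was 103 CPM per kb and that of Gpx4 was 92.0 CPM per kb. By this length Gpx3 came near Gpx4 and remained first. The length is that of all annotated exons of a gene, 1813 bases for Gpx3 and 1724 for Gpx4. Their principal transcripts have 1594 and 959 bases, so the order of these 2 genes in SD depends on the length used. The places of members at similar levels can also shift with it.

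**Figure D1:**
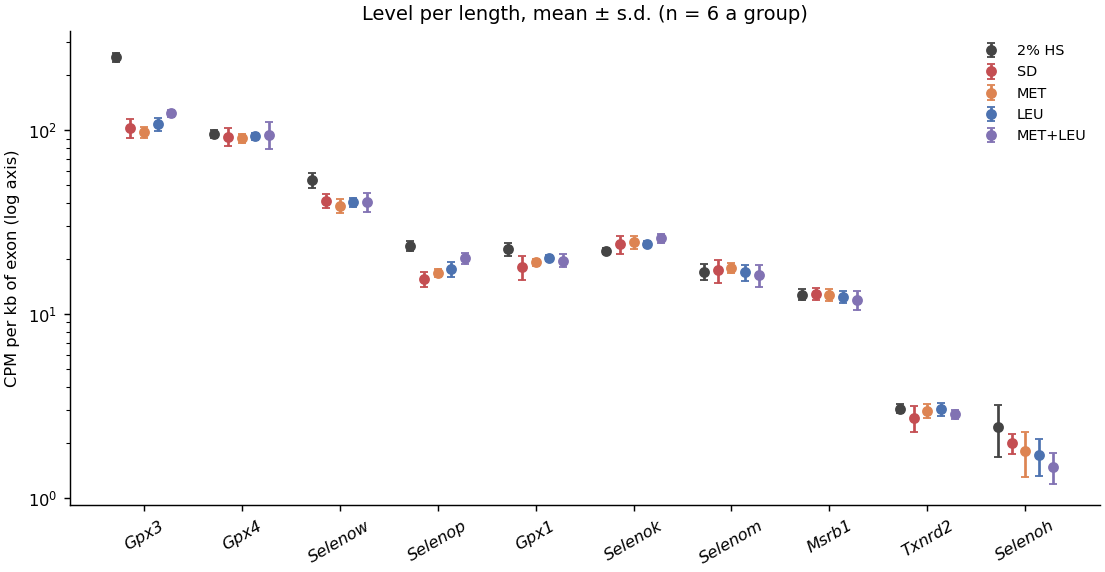
Mean level per kilobase of exon (log axis, CPM per kb) of the 10 selenoprotein mRNAs in the 5 groups, with bars of 1 standard deviation (s.d., n = 6 libraries). Gpx3 stands at 249 CPM per kb in 2% HS and at 103 CPM per kb in SD, while Gpx4 stays between 90.2 and 95.4 CPM per kb in all groups.

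In SD vs. 2% HS, 4 of the 10 members were lower and 0 were higher, where called means an adjusted p under 0.05 in edgeR's quasi-likelihood test (Benjamini-Hochberg, over every gene tested). They were the secreted proteins Gpx3 and Selenop and the intracellular proteins Selenow and Gpx1. Among all 15907 genes 27.8% were called, 13.9% as higher and 13.9% as lower. The median log2 fold change of the 10 members was -0.23, and that of all genes tested was 0.0028. All 4 calls were kept with every alternative setting and with each of the 12 libraries of the 2 groups left out in turn. Counts at an unadjusted p under 0.05 added 1 member, Selenok, whose value was higher in SD (0.12).

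Gpx3, the glutathione peroxidase that is secreted into plasma and removes hydroperoxides outside cells, changed most. Its level in 2% HS was 424 CPM in the lowest library, 453 CPM at the median and 481 CPM in the highest. In SD it was 147, 189 and 215 CPM. No SD library reached the lowest control library, and the mean was 41.3% of that in 2% HS. The log2 fold change was -1.28 with a standard error (SE) of 0.063 and an adjusted p of 1.87e-16. Gpx3 lies on chromosome 11 (chr11:54902453-54910377, plus strand, GRCm38).

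Selenop encodes selenoprotein P, which carries selenium between tissues. Its libraries ran from 61.7 through a median of 66.0 to 72.7 CPM in 2% HS. In SD they ran from 37.8 through 44.2 to 48.0 CPM. The groups did not overlap, and the log2 fold change was -0.60 (SE 0.058, adjusted p = 7.77e-12). Selenop (chr15:3268547-3280508, plus strand) overlaps Ccdc152 on the other strand, whose level was at most 0.810 CPM in any library.

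Selenow encodes a small selenoprotein that is abundant in muscle. It was measured at 33.4, 39.9 and 43.0 CPM (lowest, median, highest) in 2% HS. In SD it was at 27.04, 30.6 and 34.4 CPM. The ranges met only at their edges, where the highest SD library passed the lowest control library, and the log2 fold change was -0.37 (SE 0.067, adjusted p = 1.72e-05). The gene lies at chr7:15917208-15922402 on the minus strand.

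Gpx1 encodes the glutathione peroxidase of the cytosol and mitochondria, a protein known to respond early to selenium shortage. Its lowest, median and highest libraries were 29.2, 32.7 and 35.4 CPM in 2% HS. In SD they were 23.2, 24.1 and 33.0 CPM. SD replicate 1 was the high one, inside the control range, and the next highest SD library was at 27.3 CPM, below every control library. The log2 fold change was -0.32 (SE 0.067, adjusted p = 1.90e-04). Without SD replicate 1 it was -0.41. Gpx1 lies at chr9:108338903-108340343 on the plus strand.

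**Figure D2:**
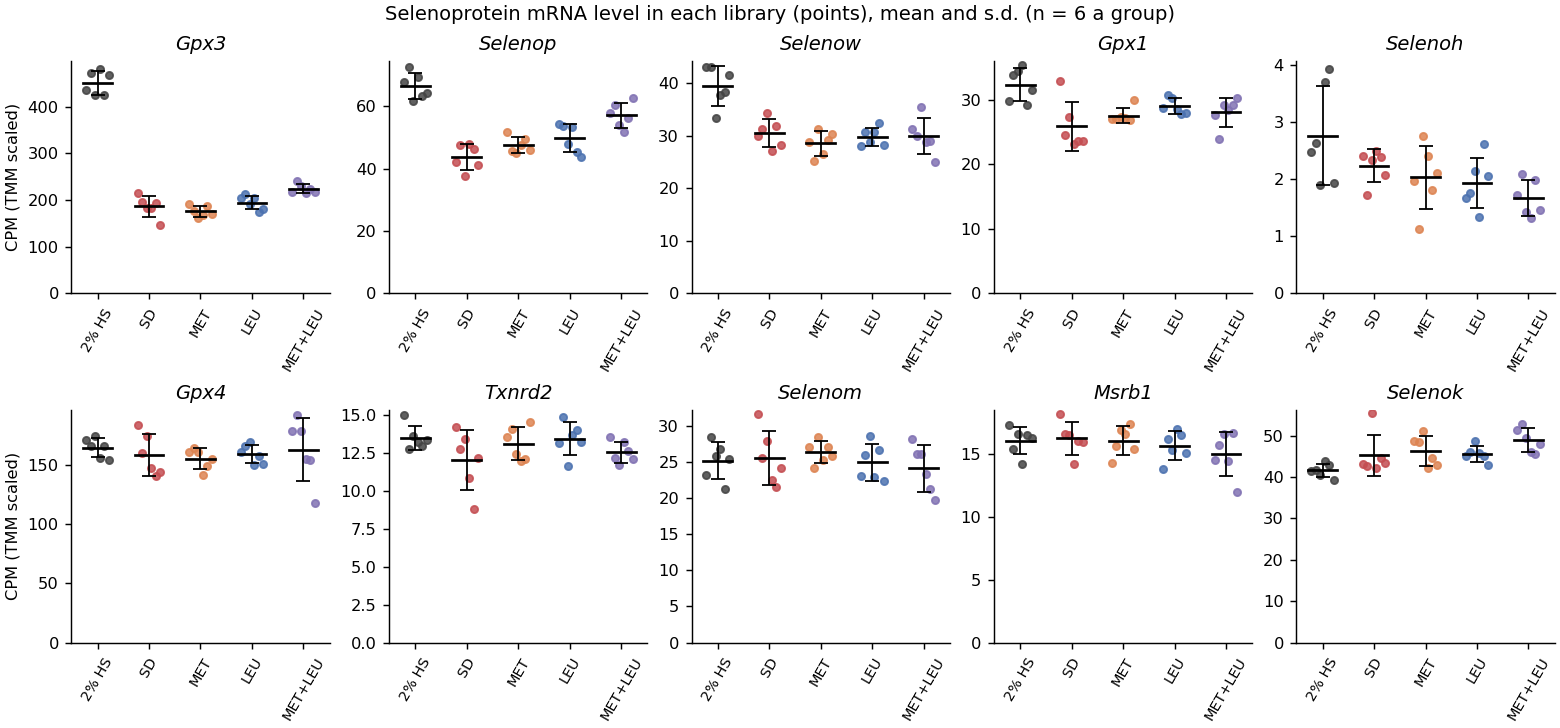
Level of each selenoprotein mRNA in each library (points, CPM scaled by TMM) for the 5 groups, with the mean and 1 s.d. (n = 6). The 6 Gpx3 libraries in 2% HS lie between 424 and 481 CPM and all serum-deprived libraries lie at or below 241 CPM, while the groups of Gpx4, Selenom, Msrb1 and Txnrd2 overlap.

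The other 6 members did not pass the test in SD vs. 2% HS. Gpx4, the enzyme that reduces lipid hydroperoxides in membranes and holds back ferroptosis, was at 154 to 174 CPM in 2% HS and at 141 to 184 CPM in SD. The 2 ranges overlapped throughout, with a log2 fold change of -0.05 (SE 0.082, adjusted p = 0.694). Reads of Gpx4 may in part be shared with the pseudogene Gpx4-ps2, which was listed at 4.83 CPM in 2% HS and 3.97 CPM in SD. Txnrd2, the mitochondrial thioredoxin reductase, had a log2 fold change of -0.16 (SE 0.084, adjusted p = 0.162), and -0.09 without SD replicate 5.

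Selenom, a thioredoxin-like protein of the endoplasmic reticulum, had a log2 fold change of 0.03 (SE 0.084, adjusted p = 0.849). Msrb1, which reduces oxidised methionine in proteins, had 0.02 (SE 0.074, adjusted p = 0.870). Selenok, a membrane protein of the endoplasmic reticulum, had 0.12 (SE 0.056, adjusted p = 0.107). For Selenom and Msrb1 the SD libraries lay on both sides of the control median, and for Selenok all 6 lay above it, with overlapping ranges. Selenok was at 55.4 CPM in SD replicate 3 and between 42.2 and 44.6 CPM in the other 5 SD libraries, and without that replicate its log2 fold change was 0.05.

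Selenoh, a nucleolar redox protein, was measured on few reads, with 28 to 73 counts in the control libraries and 26 to 44 in SD. Its level was 1.90, 2.55 and 3.92 CPM (lowest, median, highest) in 2% HS and 1.73, 2.36 and 2.50 CPM in SD. All SD values lay within the span of the control values except the lowest. The log2 fold change of -0.30 had an SE of 0.19 (adjusted p = 0.244), and was -0.19 without 2% HS replicate 4 or 5, so a change of the size seen in Selenow or Gpx1 could not be detected at this depth. Selenoh overlaps the gene model Gm28635 on the same strand, which was listed at 0 in all libraries. How reads in the overlap were assigned is not given in the sources used here.

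The 3 other serum-deprived groups were each set against the same 2% HS libraries, which these comparisons therefore share. In MET vs. 2% HS, 5 of 10 members were called (35% of all genes), in LEU vs. 2% HS 4 (29.7%), and in MET+LEU vs. 2% HS 6 (42.3%). Gpx3, Selenop and Selenow were lower in all 3. For Gpx3 the log2 fold changes were -1.36 (MET), -1.21 (LEU) and -1.01 (MET+LEU). For Selenop they were -0.48, -0.42 and -0.22, and for Selenow -0.47, -0.41 and -0.40. No Gpx3 library of these groups reached the control range, while for Selenop the highest MET+LEU library (62.5 CPM) passed the lowest control library (61.7 CPM). That library was MET+LEU replicate 6, the one high in ribosomal RNA, and the next highest, replicate 2, was at 60.3 CPM.

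Gpx1 was lower in MET (log2 fold change -0.23, adjusted p = 0.0045) and MET+LEU (-0.21, adjusted p = 0.0090). In LEU vs. 2% HS its value was -0.16 (adjusted p = 0.061). The last passed the test without 2% HS replicate 1 (-0.18) or replicate 5 (-0.19), and also with upper-quartile normalization, the GC correction, the 2 groups alone and limma-voom (adjusted p 0.012 to 0.049). Selenok was higher in MET (0.15, adjusted p = 0.026) and MET+LEU (0.23, adjusted p = 6.28e-04). In MET+LEU every Selenok library, from 45.5 to 52.9 CPM, lay above the highest control library at 43.8 CPM. The call in MET was lost without 2% HS replicate 6 or without MET replicate 1, 2 or 3 (0.13 to 0.14).

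Selenoh was lower in LEU vs. 2% HS (-0.52, SE 0.19, adjusted p = 0.037) and in MET+LEU vs. 2% HS (-0.73, SE 0.20, adjusted p = 0.0025), and had -0.45 in MET (adjusted p = 0.064). Its mean level fell from 2.76 CPM in 2% HS to 1.66 CPM in MET+LEU, on 18 to 37 counts a library. The ranges overlapped in both comparisons, as the lowest control library was at 1.90 CPM and the highest MET+LEU library at 2.09 CPM. The call in LEU was lost without 2% HS replicate 4 or 5 or LEU replicate 1, 2 or 4 (-0.49 to -0.40), while that in MET was gained without 2% HS replicate 3 or 6 or MET replicate 3 (-0.55 to -0.53). In MET+LEU vs. 2% HS, 5 members were lower and 1 was higher, against 20.3% and 22.1% of all genes.

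**Figure D3:**
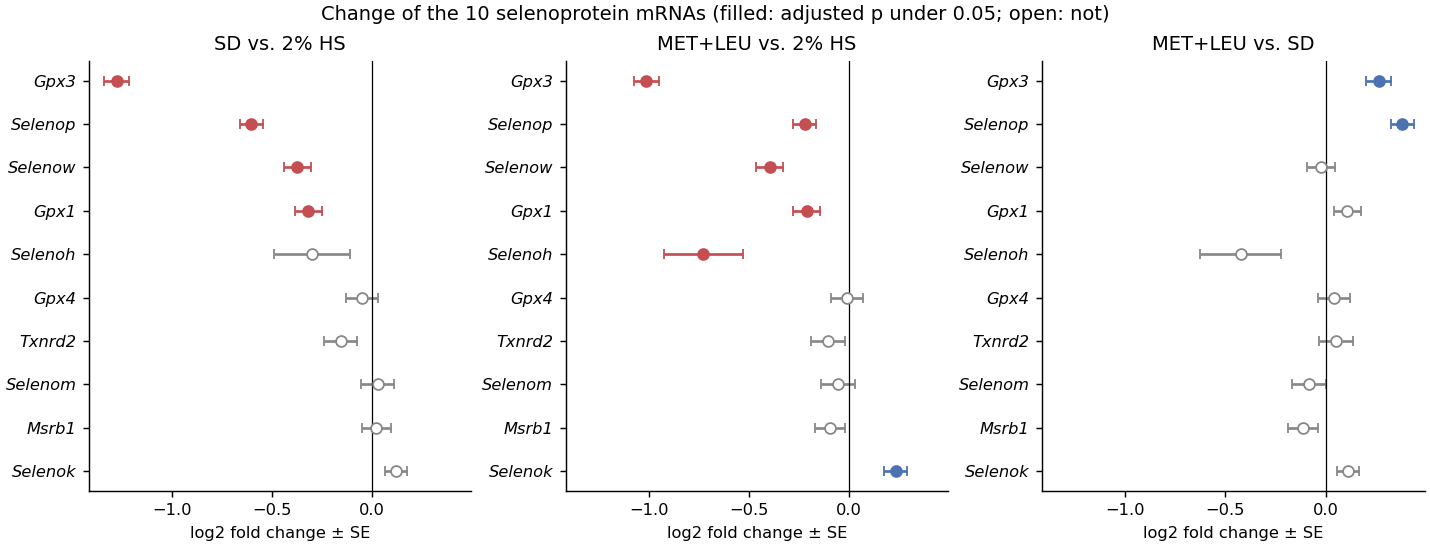
Log2 fold change with 1 SE of the 10 selenoprotein mRNAs in 3 comparisons, filled where the adjusted p was under 0.05 (red lower, blue higher) and open otherwise. Gpx3 lies at -1.28 in SD vs. 2% HS and at 0.26 in MET+LEU vs. SD. Each pair of panels shares a group of libraries.

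Within serum-deprived myotubes, 2 members were higher in MET+LEU vs. SD and 0 were lower, where 18.4% of all genes were called, 10.6% as higher and 7.80% as lower. They were Gpx3 and Selenop, the 2 secreted members. Gpx3 was at 216, 221 and 241 CPM (lowest, median, highest) in MET+LEU against 147, 189 and 215 CPM in SD. All 6 MET+LEU libraries lay above the SD range, by a narrow margin, and the log2 fold change was 0.26 (SE 0.062, adjusted p = 0.0032). Selenop was at 51.8, 57.0 and 62.5 CPM in MET+LEU against 37.8, 44.2 and 48.0 CPM in SD. The groups did not overlap, with a log2 fold change of 0.38 (SE 0.058, adjusted p = 8.49e-06). Without MET+LEU replicate 6, the library high in ribosomal RNA, the values were 0.27 for Gpx3 and 0.35 for Selenop, and both calls were kept. Every other MET+LEU library also lay above SD in its share of mitochondrial ribosomal RNA, which leaving out replicate 6 does not change. The part of that difference in the values of Gpx3 and Selenop was not tested.

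The MET+LEU means stayed under those of 2% HS for both genes. Gpx3 stood at 49.6% and Selenop at 85.8% of the control mean. Of the 5 groups, the order for Gpx3 was 2% HS, MET+LEU, LEU, SD and MET, and the ranges of LEU and SD and of SD and MET overlapped while the first 3 groups were separate. For Selenop the order was 2% HS, MET+LEU, LEU, MET and SD, and each neighbouring pair of ranges overlapped. The ranges of 2% HS and MET+LEU did so only through MET+LEU replicate 6.

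The other 8 members did not pass the test in MET+LEU vs. SD. Selenow had a log2 fold change of -0.02 (SE 0.068, adjusted p = 0.864) and Gpx1 0.11 (SE 0.068, adjusted p = 0.280). Gpx4 had 0.04, Txnrd2 0.05, Selenok 0.11, Selenom -0.08, Msrb1 -0.12 and Selenoh -0.42 (SE 0.20, adjusted p = 0.144). When a correction for GC content was added to the fit, Gpx1 (0.20, adjusted p = 0.028) and Gpx4 (0.15, adjusted p = 0.033) also passed, for 4 members in all. Gpx1 also passed without SD replicate 1 (0.19) and Selenok without SD replicate 3 (0.17). In the same comparison 5 of 12 myotube markers were higher and 1 was lower, where 10.6% of all genes were higher and 7.8% were lower. Of 7 markers of dividing cells 6 were lower, with sums of 163 to 196 CPM in MET+LEU and 206 to 270 CPM in SD. Of the 4 fibroblast markers Dcn was higher, and their sums were 99.0 to 113 CPM in MET+LEU and 88.0 to 101 CPM in SD. The part of these shifts in the values of the selenoprotein genes was not tested.

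With either agent alone, 0 of 10 members passed edgeR's test in MET vs. SD (0.157% of all genes) and 0 of 10 in LEU vs. SD (0.553%), and DESeq2 and limma-voom also called 0 in both. At an unadjusted p under 0.05 there was 1 member for MET and there were 2 for LEU. Gpx3 had log2 fold changes of -0.08 in MET and 0.06 in LEU. Selenop had 0.12 in MET (adjusted p = 0.485) and 0.18 in LEU (adjusted p = 0.169), and passed in LEU without the filter on low counts (0.19, adjusted p = 0.049). Gpx1 had 0.08 and 0.16, and passed in LEU without SD replicate 1 (0.25, adjusted p = 0.042). Selenoh had -0.14 and -0.21.

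The interaction of MET and LEU asks whether both agents together differed from the sum of their separate log2 changes. It passed edgeR's test for 0 of 10 members, against 0.0503% of all genes, and DESeq2 and limma-voom called 0 as well. The value for Gpx3 was 0.28 (SE 0.088, adjusted p = 0.295), the only member at an unadjusted p under 0.05. It was 0.33 with an adjusted p of 0.037 without SD replicate 6, the SD library with the lowest Gpx3 level. Without the filter on low counts the Gpx3 value also passed edgeR's test (0.27, adjusted p = 0.012).

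Of the 14 other selenoprotein genes, 10 could be tested. Dio1, Dio3, Gpx2 and Selenov had at most 4 counts in any library. In SD vs. 2% HS, 2 were higher and 1 was lower, and the median of the 10 was 0.0097. The 3 calls among 10 genes stand beside 27.8% of all genes called. Selenos, a membrane protein of the endoplasmic reticulum that takes part in the removal of misfolded proteins, was at 33.9, 36.5 and 38.2 CPM (lowest, median, highest) in 2% HS and at 41.6, 46.1 and 51.8 CPM in SD. The groups did not overlap, and its log2 fold change was 0.35 (SE 0.049, adjusted p = 1.48e-07).

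Sephs2 makes selenophosphate, the selenium donor for selenocysteine synthesis, and is itself a selenoprotein. It was at 14.3, 14.9 and 16.6 CPM in 2% HS and at 16.8, 17.6 and 18.2 CPM in SD, without overlap. Its log2 fold change was 0.20 (SE 0.067, adjusted p = 0.020), and 0.18 with an adjusted p of 0.051 without 2% HS replicate 1. Selenof, an endoplasmic reticulum protein that binds a glycoprotein folding sensor, was lower by a small amount (-0.09, SE 0.035, adjusted p = 0.037). That call was lost in several settings and without 2% HS replicate 3 or 6 or SD replicate 3 or 6 (-0.09 to -0.08). The 7 genes not called lay between -0.08 (Txnrd3, the thioredoxin reductase of testis) and 0.09 (Selenoi, a phospholipid-synthesising enzyme).

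In MET+LEU vs. SD, 1 of the 10 other selenoprotein genes tested was higher and 1 was lower. Of all genes 10.6% were higher and 7.8% were lower. Dio2, which converts thyroxine to the active thyroid hormone, was higher (0.20, SE 0.034, adjusted p = 5.17e-05), with 443 to 498 CPM in MET+LEU against 378 to 422 CPM in SD. Selenoi was lower (-0.13, SE 0.041, adjusted p = 0.024). The call of Selenoi was lost without SD replicate 2 (-0.11) or MET+LEU replicate 6 (-0.11). It was also lost with limma-voom, the 2 groups alone, no filter on low counts or the 0.01 threshold. The 8 genes not called lay between -0.07 (Selenon, a muscle protein of the endoplasmic reticulum) and 0.11 (Selenos).

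Of the 11 listed genes that make and insert selenocysteine, 0 passed edgeR's test in SD vs. 2% HS, where 27.8% of all genes were called. DESeq2 and limma-voom also called 0. With the GC correction 1 passed, Eefsec, the elongation factor for selenocysteine (adjusted p = 0.046). At the unadjusted level 1 had an unadjusted p under 0.05, and the median log2 fold change was -0.03. In MET+LEU vs. SD, where 10.6% of all genes were higher, 1 of the 11 was higher, Pstk. It is the kinase that phosphorylates the seryl-tRNA on the way to selenocysteine (log2 fold change 0.22, SE 0.078, adjusted p = 0.040). The call of Pstk was lost in 17 of 23 alternatives, among them 11 of the 12 in which 1 library was left out and the GC correction (0.14). With that correction Sepsecs, the enzyme of the next step, passed instead (adjusted p = 0.019).

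Lrp8 and Lrp1 belong to the lipoprotein receptor family, in which Lrp8 is a known receptor for SELENOP. Both were higher in SD vs. 2% HS, where 13.9% of all genes were higher. Lrp8 was at 4.57 to 6.85 CPM in 2% HS and 5.85 to 8.92 CPM in SD, with overlapping ranges and a log2 fold change of 0.42 (SE 0.12, adjusted p = 0.0049). Lrp1 was at 1350 to 1437 CPM in 2% HS and 1452 to 1761 CPM in SD, without overlap, and its value was 0.18 (SE 0.038, adjusted p = 2.33e-04). The kidney receptor Lrp2 was at most 0.942 CPM in any library and was not tested.

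Redox genes without selenocysteine were listed as partners of the selenoproteins. Of 18 tested, 9 were higher and 0 were lower in SD vs. 2% HS, with a median of 0.08, where 13.9% of all genes were called in each direction. The 5 with the smallest adjusted p were Sod3, the extracellular superoxide dismutase (0.50), Prdx4, a peroxiredoxin of the endoplasmic reticulum (0.51), Gclc, which makes the first intermediate of glutathione (0.19), Txn1, cytosolic thioredoxin (0.24), and Glrx, a glutaredoxin (0.35). Sod3 was at 35.5 to 42.5 CPM in 2% HS and 48.9 to 59.0 CPM in SD. Gpx8, a relative of the glutathione peroxidases with cysteine in place of selenocysteine, was also higher (0.21, SE 0.052, adjusted p = 0.0013), and Msrb3, a cysteine relative of Msrb1, had 0.07. In MET+LEU vs. SD, 5 of the 18 partner genes were higher, Sod1 (0.33), Prdx2 (0.14), Sod2 (0.14), Gclc (0.13) and Gss (0.15), and so was Gpx8 (0.25), where 10.6% of all genes were higher. With the GC correction Sod2 (0.065), Gclc (0.11) and Gss (0.13) did not pass. The last 2 also did not pass with upper-quartile normalization or with the 2 groups alone, nor Gclc with limma-voom or Gss without the filter on low counts. Gclc lost its call without SD replicate 1, 3, 4 or 6 or MET+LEU replicate 5 or 6 (0.08 to 0.13). Gss lost its call without SD replicate 2, 4, 5 or 6 or MET+LEU replicate 1, 4 or 6 (0.12 to 0.15).

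**Figure D4:**
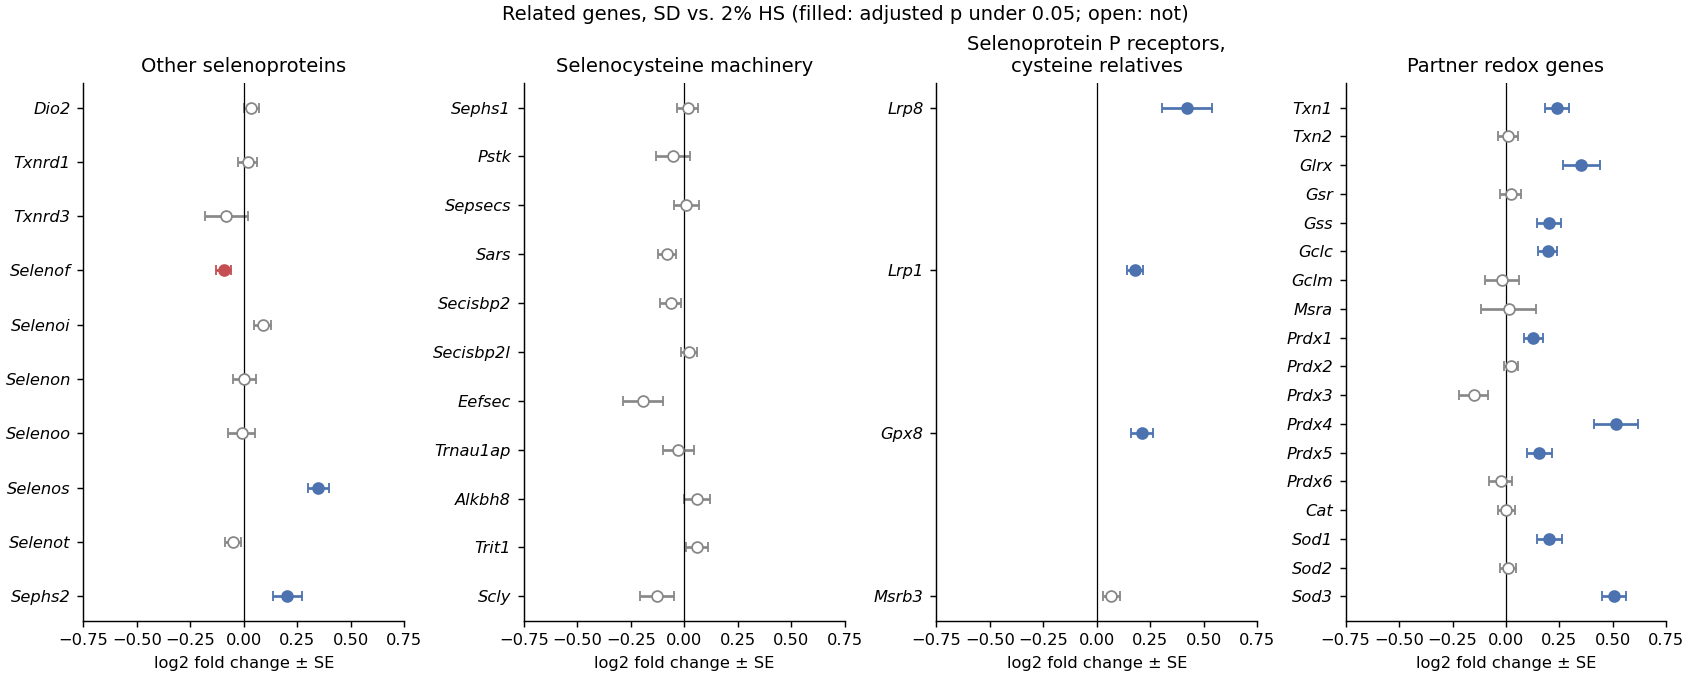
Log2 fold change with 1 SE in SD vs. 2% HS of the other tested selenoproteins, the selenocysteine machinery, the SELENOP receptors with cysteine relatives, and the partner redox genes, filled where the adjusted p was under 0.05 (blue higher, red lower). Filled points are 2 higher and 1 lower selenoproteins, 0 of 11 machinery genes, and 9 of 18 partner genes. Among all genes tested 27.8% were called.

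The selenocysteine codon differed in its distance to the last exon junction, the feature that marks a stop codon as early in nonsense-mediated decay when it lies more than about 55 bases before that junction. It lay further than 55 bases before the junction in 8 of the 10 members. The distance was 240 bases in Gpx3, 357 in Selenop, 243 in Selenow and 105 in Gpx1, the 4 members that fell. It was 342 bases in Gpx4, 136 in Selenoh, 135 in Selenom and 83 in Txnrd2, which did not pass the test. In Msrb1 the distance was 34 bases and in Selenok 5.

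Over all 20 tested selenoprotein genes, 11 had the codon beyond 55 bases before the last junction. Of these, 5 were lower in SD vs. 2% HS (Gpx1, Gpx3, Selenow, Selenop and Selenof), 0 were higher and 6 were not called, and Selenof is the one whose call was lost in 8 of 23 alternatives. Of the other 9, 0 were lower, 2 were higher (Selenos and Sephs2) and 7 were not called. Sephs2 is among the 9 because its transcript has 1 exon and so no junction. Selenot at 470 bases and Gpx4 at 342 bases had 2 of the 3 longest distances and log2 fold changes of -0.05 each. Of all genes 13.9% were called in each direction. These counts are a description of 20 genes and were not tested.

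**Figure D5:**
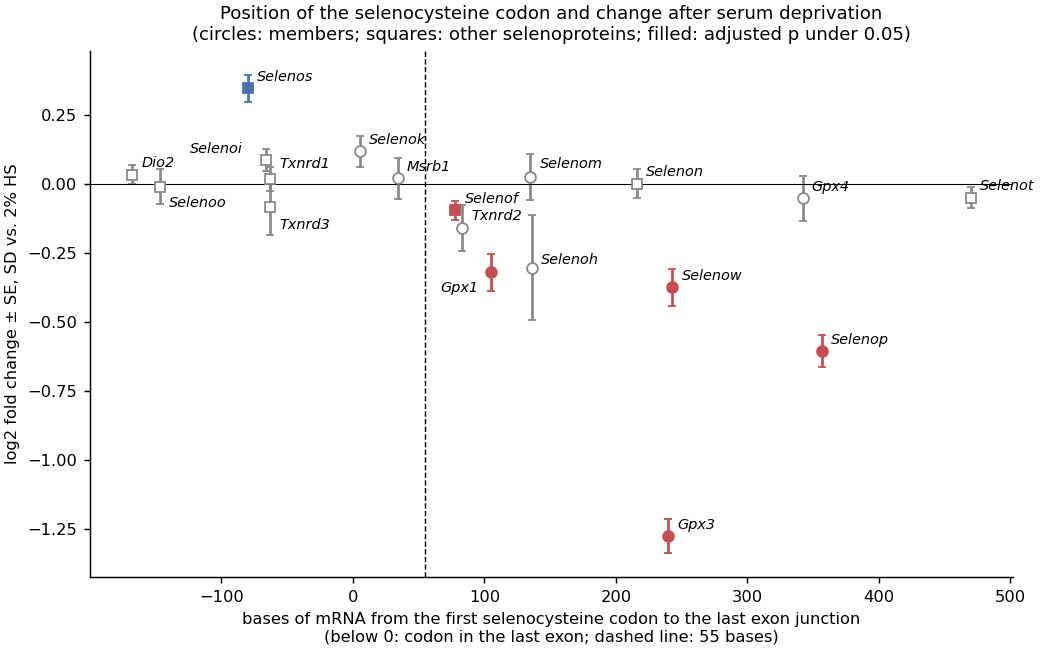
Log2 fold change in SD vs. 2% HS (1 SE) against the number of mRNA bases from the first selenocysteine codon to the last exon junction, for tested selenoprotein genes with at least 1 junction (circles members, squares others, filled where the adjusted p was under 0.05). The 5 lower genes lie right of the dashed line at 55 bases, together with 6 genes that were not called.

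The genes whose pattern over the 30 libraries was nearest to that of each fallen member were found by the root mean square difference of log2 CPM after each gene's mean was subtracted. For Gpx3 they were Ccn2 (0.12), Tenm4 (0.15) and Klf9 (0.16). For Selenop they included Sh3glb1 (0.092) and Ctxn3 (0.11). For Selenow they were Ltbp2 (0.11), Gm13394 (0.11) and Aif1l (0.12), and for Gpx1 Sirt2 (0.097), Actn4 (0.10) and Srgap3 (0.11).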

How the data were processed

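The authors depleted ribosomal RNA from total RNA, made stranded libraries and read 150 × 150 bp. The submitters' processing notes name cutadapt 1.16, STAR 2.7.6a, featureCounts 1.6.3, DESeq2 1.30.1 and GRCm38. Strand and multi-mapping settings and the annotation release are not given in the sources used here. The authors deposited raw counts per Ensembl gene, without normalization. Symbols, positions, exon lengths and selenocysteine codons (as annotated, in 1 principal transcript a gene) came from GENCODE M21, which is on GRCm38 and matched 55227 of 55487 identifiers.

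Counts were analysed in R 4.3.3 with edgeR 4.0.16. Genes passing filterByExpr (minimum count 10, minimum total 15) were scaled by TMM and fitted with a mean for each of 5 groups by robust glmQLFit. Adjustment was by Benjamini-Hochberg over 15907 genes. The SE is the absolute log2 fold change divided by the square root of F. CPM are TMM scaled. The scripts were tested on simulated data. DESeq2 1.42.0 and limma 3.58.1 (voom) were alternatives.

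The members and gene lists were chosen with earlier results of these data known. Genes named were the members, the other tested selenoproteins that were called or ended the range, up to 5 called genes for each other list by smallest adjusted p, and the 3 genes nearest in pattern to each member called in SD vs. 2% HS. Some values that these rules would name are not reported here.

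Depth was 12784960 to 19604103 counts a library, and intervals of counting error are not added to the values.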

Additional observations from a re-analysis of the deposited data

Results flagged for a closer look

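In 4 of the 100 combinations of a tested selenoprotein gene and a group, 1 library lay far from the other 5, where chance gives about 1 in 20 such flags. Gpx1 was at 29.96 CPM in MET replicate 6 and between 26.8 and 27.4 CPM in the other MET libraries. Selenok was at 55.4 CPM in SD replicate 3 against 42.2 to 44.6 CPM in the others. Selenof was at 186 CPM in LEU replicate 6 against 202 to 211 CPM. Selenot was at 180 CPM in LEU replicate 2 against 160 to 167 CPM. None of the 4 was in MET+LEU replicate 6, the library high in ribosomal RNA. No interaction between the agents passed the test for a member.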

How the results depend on the processing

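The alternatives were DESeq2 size factors, upper-quartile normalization, DESeq2, limma-voom, no filter on low counts, at least 10 counts in every library, a GC correction, a non-robust fit, a 0.01 threshold, blocking on the replicate number, a fit to the 2 groups alone, and each library left out. Of 1920 single-gene values under these alternatives, 1796 kept direction and side of the threshold, 78 lost a call, 24 gained one and 22 changed sign. None of the sign changes was in a called value.

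The 4 members called in SD vs. 2% HS and the 6 in MET+LEU vs. 2% HS stayed 4 and 6 throughout. In MET vs. 2% HS the count was 4 to 6 and in LEU vs. 2% HS 3 to 6. In LEU vs. SD 1 member was called without the filter and 0 to 1 when a library was left out, in the interaction likewise 1 and 0 to 1, and in MET+LEU vs. SD 4 were called with the GC correction. Of the other selenoproteins, 1 was called at the 0.01 threshold in SD vs. 2% HS. In MET+LEU vs. SD 1 was called at that threshold, without the filter, with the 2 groups alone and with limma-voom, and 1 to 3 when a library was left out. Over all genes, MET+LEU vs. SD had 2931 calls in the main fit, 1857 with limma-voom, 1422 with the 2 groups alone and 1613 at the 0.01 threshold. Causes were not tested.

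With the GC correction the log2 fold change changed sign to -0.0074 for Msrb1 and -0.013 for Selenom in SD vs. 2% HS, to 0.056 for Gpx4 in MET+LEU vs. 2% HS, and to 0.0017 for Selenom, 0.056 for Selenow and 0.011 for Selenon in MET+LEU vs. SD. With limma-voom it changed sign to -0.023 for Selenom in SD vs. 2% HS, to 0.035 for Gpx4 in MET+LEU vs. 2% HS, and to 0.0045 for Selenom, 0.032 for Selenow and 0.0011 for Selenon in MET+LEU vs. SD. With a library left out, values in SD vs. 2% HS ran from -0.018 to 0.055 for Msrb1, -0.048 to 0.067 for Selenom and -0.16 to 0.0011 for Txnrd3. Gpx4 ran from -0.071 to 0.058 in MET+LEU vs. 2% HS. In MET+LEU vs. SD, Gpx4 ran from -0.018 to 0.11, Selenow from -0.074 to 0.016 and Txnrd2 from -0.024 to 0.10.

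Of 60 pairs of libraries with the same number in 2 groups, 2 had deviations correlated above 0.1 (mean r 0.016). For pairs with different numbers the mean r was -0.0031, and 11 of 30 libraries correlated best with their own number. These values do not settle whether the number marks a pairing, and the main fit used none. With the replicate block, SD vs. 2% HS had 4498 calls against 4424, and 4 members were again called. Calls over all genes rose from 25 to 52 in MET vs. SD and from 8 to 17 in the interaction. The block added Selenok in LEU vs. 2% HS (0.13, adjusted p = 0.0498). Selenoh, at 18 to 73 counts a library, was the member most limited by depth.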

Other observations

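Genes of nonsense-mediated decay were listed because the pathway acts on selenoprotein mRNAs. Of 14 tested, 5 were higher and 0 were lower in SD vs. 2% HS, with a median log2 fold change of 0.09, where 13.9% of all genes were called in each direction. Among them were the exon junction complex genes Eif4a3 (0.20), Rbm8a (0.24) and Magoh (0.25) and the helicase gene Upf1 (0.17). In MET+LEU vs. SD, 3 of 14 were higher, Rbm8a (0.35), Upf3b (0.40) and Upf2 (0.24), where 10.6% of all genes were higher. Upf3b was at 39.6 CPM in MET+LEU replicate 6, the library high in ribosomal RNA, against a group median of 22.98 CPM. Its value was 0.22 without that library, and with the 2 groups alone it did not pass (adjusted p = 0.119). Upf2 lost its call without SD replicate 1 or 2 or MET+LEU replicate 6 (0.14 to 0.21), and also with limma-voom or the 2 groups alone.

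Some muscle and progenitor markers also differed in SD vs. 2% HS, where 13.9% of all genes were called in each direction. Of the 12 myotube markers 5 were lower, 1 (Des) was higher and 6 were not called. Ckm, the muscle creatine kinase, was at 289 to 327 CPM in 2% HS and 139 to 180 CPM in SD (log2 fold change -0.98). Pax7, a marker of satellite cells and of unfused reserve cells in this line, fell by 0.37 on the log2 scale. It was the only 1 of 4 listed markers of unfused myoblasts that was called, and Myf5, Spry1 and Sdc4 were not. In MET and in LEU vs. 2% HS Pax7 was also lower, while Spry1 was higher. Dpt, a matrix protein gene of fibroblasts, rose from a mean of 5.73 CPM to 47.8 CPM. The part of these shifts in the selenoprotein values was not tested.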
